A study of Homo sapiens with 12 samples.

Results

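The expression of 8 genes of the death-receptor pathway was measured by RNA-seq in 143B, an established tumorigenic line of human osteosarcoma, in 12 libraries: the receptors TNFRSF10A, TNFRSF10B, TNFRSF10D and FAS, the initiator caspases CASP8 and CASP9, and the inhibitors CFLAR and BIRC3. They were taken by symbol from the deposited count tables, which held all 8 of them among 24180 symbols, and all 8 passed the filter on low counts. The groups were BSG, M-BSG (named 5-MNP-BSG in the study's article, per the titles), M-BSG-Hot (named there 5-MNP-BSG with a plus sign) and the control NC, with 3 libraries in each, and all carried the genotype label WT. The series is titled for a bioactive borosilicate glass combined with moderate heating by magnetic particles, and all 12 samples, NC included, carry a single treatment text that names 5-MNP-BSG and an alternating field. Which group received which material, field, dose or time is therefore not separately stated, nor is whether replicates were separate cultures, so p-values measure the spread between these libraries, which may be technical. A single line was studied, and no measurement of cell death is part of these data.

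Death receptors are members of the tumour necrosis factor receptor superfamily that carry a cytoplasmic death domain. When the ligand TRAIL binds TNFRSF10A or TNFRSF10B, or Fas ligand binds FAS, the adaptor FADD brings in procaspase-8, which is activated there and cuts the executioner caspases. TNFRSF10D binds TRAIL but has a truncated death domain and acts as a decoy. CASP9 is the initiator of the mitochondrial route, activated on the APAF1 and cytochrome c complex. CFLAR encodes c-FLIP, which resembles procaspase-8, lacks its protease activity and competes for FADD, and BIRC3 encodes cIAP2, a ubiquitin ligase that holds the tumour necrosis factor receptor complex in its survival state.

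Total counts ranged from 34434993 to 38163152 per library. Levels are given as CPM, each count relative to its TMM-scaled library size, which compare libraries, and as the authors' deposited FPKM, per kilobase of gene length, where genes are compared with each other. The first library of BSG and of M-BSG differed most from its replicates, by a chi-square per degree of freedom of 44.9 and 60.9 for BSG 1 and of 32.8 and 56.2 for M-BSG 1, while BSG 2 and BSG 3 gave 7.48 and M-BSG 2 and M-BSG 3 gave 8.27. In M-BSG-Hot the largest value, 40.4, was between libraries 1 and 3. BSG 1, M-BSG 1 and M-BSG-Hot 3 also had the highest share of ribosomal protein genes in their groups, 10.3%, 9.02% and 8.87% of counts, in a range of 6.84% to 10.3% over 12 libraries. Of the mesenchymal and bone tumour markers VIM reached 3482 to 4639 CPM, SPARC 321 to 391, RUNX2 10.2 to 16.9 and TWIST1 9.37 to 17.5, while COL1A1, the main bone collagen, was low at 5.23 to 8.91 CPM. The defining markers of other cells were near 0 for KRT5 (at most 3 counts), CDH1 (at most 6), LYZ (at most 7) and VWF (at most 10), while the endothelial markers CDH5 had 1 to 18 counts and PECAM1 19 to 78, and CD68 stood at 119.6 to 165 CPM and EPCAM at 13.7 to 21.8 CPM over the 12 libraries. The mesenchymal marker COL1A2 and the immune markers PTPRC and CD3E were also looked up, and no count or CPM was found for them. All 24180 deposited symbols had a count above 0 in at least 1 library, so no gene at 0 throughout is listed. Whether these markers were at 0 or absent for another reason was not tested.

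CFLAR, the inhibitor of caspase-8 activation, was lower in all 3 treated groups than in NC, at 0.71 times the NC level in BSG, 0.79 times in M-BSG and 0.77 times in M-BSG-Hot, and it was the only member called by edgeR's quasi-likelihood test in any of the 6 comparisons. The other 7 members, both TRAIL death receptors, the TRAIL decoy, FAS, both initiator caspases and BIRC3, were not called higher or lower in any comparison. No member was called between M-BSG and BSG (0.13% of all genes), M-BSG-Hot and M-BSG (0.694%), or M-BSG-Hot and BSG (0.85%). The comparisons with NC share the NC libraries. Beside these comparisons, the summed CPM of the epithelial markers, nearly all of it EPCAM, was 16.5 to 21.9 in BSG, 14.2 to 18.0 in M-BSG and 14.7 to 16.8 in M-BSG-Hot, against 13.8 to 15.4 in NC. Only BSG lay above NC without overlap, and CDH1 and KRT5 were near 0 in every library. The endothelial sum was 0.941 to 1.51 in BSG, 1.07 to 1.52 in M-BSG and 1.68 to 2.44 in M-BSG-Hot, against 1.21 to 1.33 in NC, and only M-BSG-Hot lay above NC. The immune sum, nearly all of it CD68, was 128 to 137 in BSG, 124 to 152 in M-BSG and 119.6 to 165 in M-BSG-Hot, against 133 to 152 in NC, and overlapped throughout. The part of these markers in the CFLAR values was not tested. Of all 15407 genes tested 11.7% were called in BSG, 6.35% in M-BSG and 4.91% in M-BSG-Hot against NC. The length of CFLAR behind its FPKM was 22973 bases, and its calls were lost when the trend of the fold changes with gene length was removed.

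**Figure D1:**
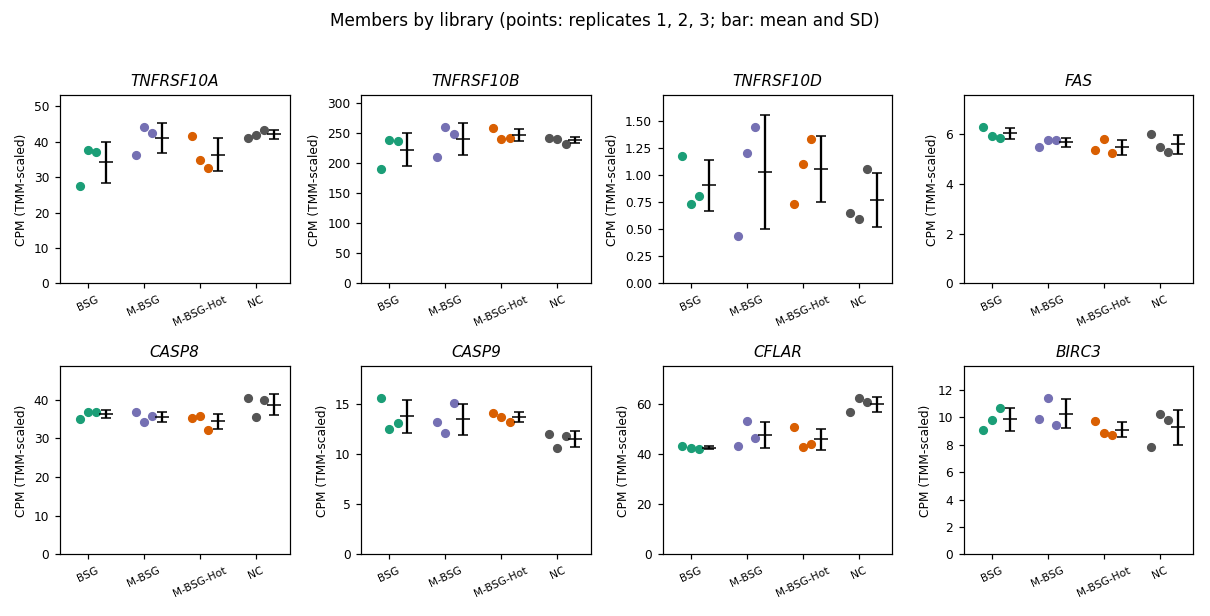
TMM-scaled CPM (vertical axes, from 0) of the 8 members in the 12 libraries, with the groups BSG, M-BSG, M-BSG-Hot and NC from left to right. Points are the 3 libraries of a group in the order of their replicate numbers, and the bar is the mean with its SD; the 9 treated libraries of CFLAR sit at 42.1 to 53.2 CPM, below the 3 NC libraries at 56.5 to 62.4 CPM.

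CFLAR was the member called different from NC, and BIRC3 is described as a target of NF-kB in many cell types, so the 250 bases before an annotated start of each are shown. Both come from RefSeq promoters of assembly GRCh38.p14, in which 5 of the 8 members have 13 entries (4 of them for CFLAR). The CFLAR window is chr2:201118466-201118715 and the BIRC3 window is chr11:102317234-102317483, both on the plus strand and ending at the base before the start. Capitals mark a match to the NF-kB motif GGGNNNTTCC on either strand, 97 bases before the start in CFLAR and 199 bases before it in BIRC3. It stood in 1 of the 4 CFLAR entries and in the 1 entry of BIRC3, and in none of the 3 of CASP8, the 2 of CASP9 and the 3 of FAS.
CFLAR: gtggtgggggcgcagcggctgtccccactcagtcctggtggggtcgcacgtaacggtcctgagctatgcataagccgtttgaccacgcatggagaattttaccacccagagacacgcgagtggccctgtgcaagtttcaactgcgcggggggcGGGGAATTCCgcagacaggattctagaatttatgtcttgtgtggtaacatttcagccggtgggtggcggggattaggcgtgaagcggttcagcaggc
BIRC3: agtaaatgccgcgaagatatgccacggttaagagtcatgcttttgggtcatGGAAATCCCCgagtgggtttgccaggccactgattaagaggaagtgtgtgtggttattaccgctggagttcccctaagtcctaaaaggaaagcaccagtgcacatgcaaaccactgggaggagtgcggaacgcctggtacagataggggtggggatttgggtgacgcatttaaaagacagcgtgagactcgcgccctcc
Such a match stood in 5.67% of the 35116 promoter windows of the same length. The AP-1 motif TGANTCA, searched because FOS rose in every treated group, stood in 6.57% of them and in neither window above, and was found in another entry of CFLAR, in 1 of the 3 entries of CASP8 and in 1 of the 3 of FAS. No match of the 2 motifs overlapped another. A match describes the letters and shows no binding, and the counts do not tell which start was used.

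Per gene length the members spanned a wide range of levels. TNFRSF10B was the highest member in every library, with 45.3 to 65.7 FPKM, followed by TNFRSF10A with 9.75 to 16.7 and CASP8 with 8.87 to 11.9 FPKM. CASP9 reached 2.84 to 3.86 FPKM, CFLAR 1.78 to 2.84 and BIRC3 1.15 to 1.65. FAS, at 0.545 to 0.663 FPKM, and the decoy TNFRSF10D, at 0.121 to 0.411 FPKM, were the lowest. TNFRSF10A and CASP8 overlapped in their ranges, and so did CASP9 with CFLAR, whereas FAS lay above TNFRSF10D without overlap. The order rests on the length behind the FPKM, which was 22973 bases for CFLAR, 9284 for FAS and 3491 for CASP8, against exon totals of 22529, 4253 and 7243 bases in GENCODE release 29. The FPKM of CFLAR divides all its reads by that whole length, whichever transcripts they come from.

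**Figure D2:**
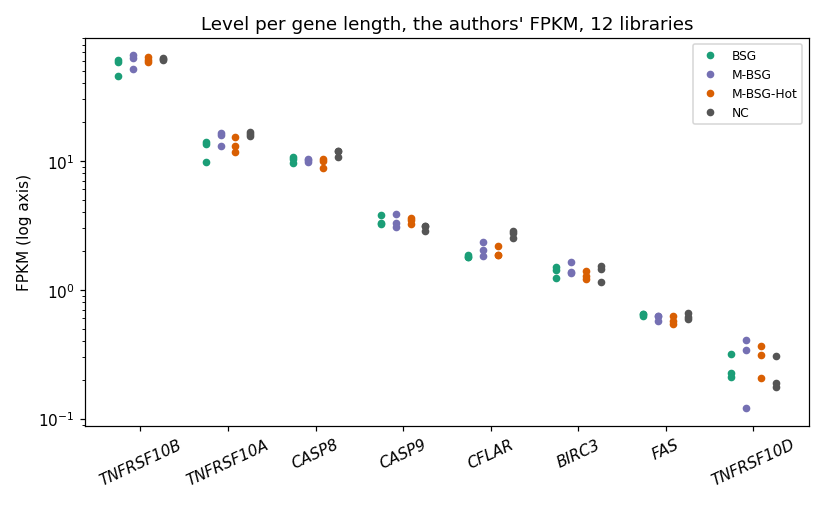
The authors' FPKM of each member (vertical log axis) in 12 libraries, ordered by mean level; each point is a library and the groups BSG, M-BSG, M-BSG-Hot and NC stand from left to right within a gene. TNFRSF10B lies highest at 45.3 to 65.7 FPKM and TNFRSF10D lowest at 0.121 to 0.411 FPKM.

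Among the TRAIL receptors, TNFRSF10B (DR5) had 190.45, 239 and 237 CPM in the BSG libraries, 211, 261 and 249.5 in M-BSG, with 258, 240.4 and 242 in M-BSG-Hot, against 242, 240.6 and 232 in NC. The low values were those of BSG 1 and M-BSG 1, and the other 7 treated libraries lay above the lowest NC library. The log2 fold changes against NC were -0.10 in BSG (95% interval -0.31 to 0.11), 0.01 in M-BSG (-0.20 to 0.22) and 0.05 in M-BSG-Hot (-0.16 to 0.26). TNFRSF10B is described as a target of p53, whose target CDKN1A rose in BSG and M-BSG, with log2 fold changes of 0.66 (edgeR adjusted p = 0.000835) and 0.64 (adjusted p = 0.00134), and had 0.27 in M-BSG-Hot (adjusted p = 0.177). DDIT3, which encodes CHOP and is described as an activator of TNFRSF10B, had -0.22 in BSG, -0.69 in M-BSG and -0.55 in M-BSG-Hot, none of them called (adjusted p = 0.491, 0.0819 and 0.189). ATF4, a stress-response factor upstream of DDIT3, rose by 0.58 in BSG (adjusted p = 0.0034) and by 0.45 in M-BSG (adjusted p = 0.0237), and had 0.29 in M-BSG-Hot (adjusted p = 0.165). CDKN1A, DDIT3 and ATF4 were named after their values were seen.

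TNFRSF10A (DR4) had 27.6, 37.7 and 37.1 CPM in BSG, 36.2, 44.2 and 42.5 in M-BSG, with 41.5, 34.8 and 32.7 in M-BSG-Hot, against 41.0, 41.8 and 43.3 in NC. All 3 BSG libraries lay below the NC libraries, and the other treated groups overlapped NC. The log2 fold change of BSG was -0.30 (SE 0.12, unadjusted p = 0.0304), which did not pass adjustment over all genes (edgeR, adjusted p = 0.124), and it was -0.15 without the 3 libraries of highest ribosomal protein share (adjusted p = 0.175). Across the 12 libraries the log2 CPM of TNFRSF10A and TNFRSF10B had a Pearson correlation of 0.76, a description over libraries that share a low value in BSG 1 and M-BSG 1.

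The decoy TNFRSF10D was close to the limit of what the depth resolves, with 42, 28 and 30 counts in BSG, 16, 45 and 53 in M-BSG, with 27, 41 and 49 in M-BSG-Hot, against 23, 23 and 40 in NC. All 4 groups overlapped. The log2 fold changes were 0.23, 0.42 and 0.46 against NC, with 95% intervals that reached from -0.66 to 1.13, from -0.47 to 1.31 and from -0.43 to 1.34, so that at this depth a rise by 1 on the log2 scale lay within all 3 intervals. Per gene length TNFRSF10B stood 230 ± 76.8 times above TNFRSF10D in BSG, 257 ± 147 in M-BSG and 222 ± 79.3 in M-BSG-Hot, against 293 ± 85.9 in NC (SD, n = 3 each).

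FAS, the receptor for Fas ligand, varied least of the members, with a coefficient of variation of 5.70% over 12 libraries. It had 6.29, 5.93 and 5.85 CPM in BSG, 5.47, 5.78 and 5.75 in M-BSG, with 5.35, 5.82 and 5.24 in M-BSG-Hot, against 6.01, 5.48 and 5.28 in NC. Every treated group overlapped NC, and the 95% intervals of the log2 fold changes stayed between -0.27 and 0.35.

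Of the initiator caspases, CASP8 had 35.1, 36.9 and 36.9 CPM in BSG, 36.7, 34.2 and 35.8 in M-BSG, with 35.2, 35.8 and 32.1 in M-BSG-Hot, against 40.5, 35.6 and 40.0 in NC. The second NC library lay among the treated ones, so that each group overlapped NC. The log2 fold changes were -0.09, -0.12 and -0.17 in BSG, M-BSG and M-BSG-Hot, and only the last had an unadjusted p under 0.05 (0.0458, edgeR adjusted p = 0.284).

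CASP9 had 15.7, 12.6 and 13.2 CPM in BSG, 13.3, 12.1 and 15.1 in M-BSG, with 14.2, 13.8 and 13.2 in M-BSG-Hot, against 12.1, 10.7 and 11.9 in NC. All 9 treated libraries lay above the 3 NC libraries, by little in M-BSG, where the lowest had 12.09 CPM against 12.08 CPM in the highest NC library. The log2 fold changes were 0.26 (SE 0.11, edgeR adjusted p = 0.141), 0.23 (SE 0.11, adjusted p = 0.313) and 0.25 (SE 0.11, adjusted p = 0.277), none of which passed. Without M-BSG-Hot 3, M-BSG 1 and BSG 1 the value in BSG was 0.17 (adjusted p = 0.334).

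**Figure D3:**
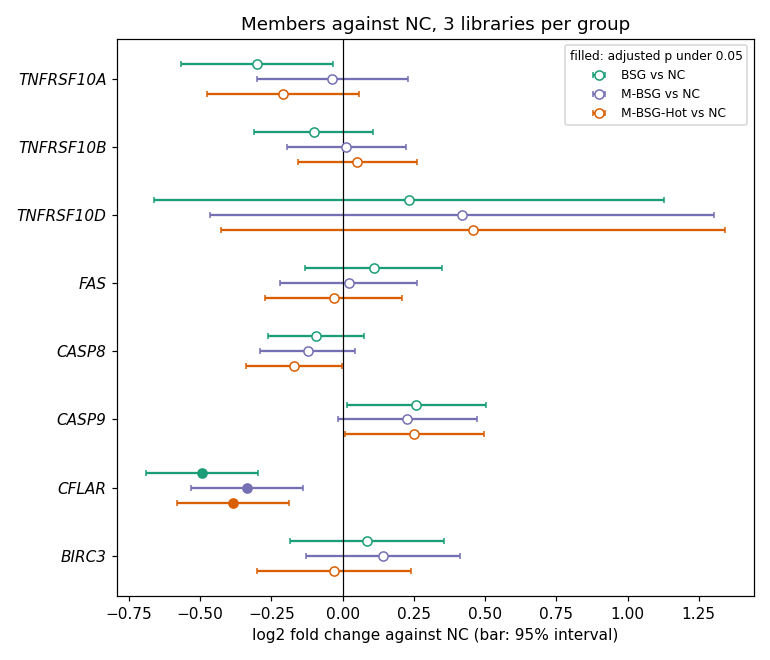
Log2 fold change against NC (horizontal axis) of each member in BSG, M-BSG and M-BSG-Hot, from top to bottom within a gene; bars are 95% intervals from the edgeR fit over 12 libraries and filled points have an adjusted p under 0.05. The CFLAR points, at -0.49, -0.33 and -0.39, are the filled ones, and the widest bars belong to TNFRSF10D.

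Among the inhibitors, CFLAR had 43.1, 42.4 and 42.1 CPM in BSG, 43.1, 53.2 and 46.2 in M-BSG, with 50.6, 42.8 and 44.0 in M-BSG-Hot, against 56.5, 62.4 and 60.6 in NC. The BSG libraries lay close together, and no treated library reached the lowest NC library. CFLAR averaged 42.5 ± 0.526 CPM in BSG, 47.5 ± 5.18 in M-BSG and 45.8 ± 4.23 in M-BSG-Hot, against 59.8 ± 2.99 in NC (SD, n = 3 each). It fell by 0.49 on the log2 scale in BSG (SE 0.091, edgeR adjusted p = 0.00327), by 0.33 in M-BSG (SE 0.091, adjusted p = 0.0438) and by 0.39 in M-BSG-Hot (SE 0.091, adjusted p = 0.0257). In bulk RNA, fewer cells that express a gene and less of its RNA per cell cannot be told apart. The treated groups followed the order BSG, M-BSG-Hot and M-BSG from low to high, and no neighbours in it differed beyond their spread: the log2 fold change was 0.11 for M-BSG-Hot against BSG (95% interval -0.09 to 0.30) and -0.05 for M-BSG-Hot against M-BSG (-0.25 to 0.15).

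The BSG call held without any single library (adjusted p = 0.00197 to 0.0220), while the other 2 calls did not. In M-BSG it was lost without NC 1 (adjusted p = 0.0725), NC 2 (0.171), NC 3 (0.146), M-BSG 1 (0.170), M-BSG 3 (0.158), BSG 2 (0.0573), BSG 3 (0.0614), M-BSG-Hot 2 (0.0624) or M-BSG-Hot 3 (0.0590). In M-BSG-Hot it was lost without NC 2 (adjusted p = 0.123), NC 3 (0.10006), M-BSG-Hot 2 (0.119) or M-BSG-Hot 3 (0.109). Without M-BSG-Hot 3, M-BSG 1 and BSG 1 together all 3 calls were kept, with log2 fold changes of -0.49, -0.26 and -0.35.

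A trend with gene length ran through the same comparisons, and CFLAR is among the longest genes tested: 77 of the other genes among 15407 were at least as long, and the median length was 3986 bases. In BSG against NC the median log2 fold change was 0.25 for the 818 genes under 1000 bases and -0.27 for the 860 genes of 12000 bases or more. For the long genes it was -0.08 in M-BSG and -0.12 in M-BSG-Hot. Of 528 other genes with lengths of 13816 bases or more, 139 had a lower log2 fold change than CFLAR in BSG, 79 in M-BSG and 91 in M-BSG-Hot. With the length trend of each library removed, the log2 fold change of CFLAR was -0.13 in BSG (edgeR adjusted p = 0.488), -0.22 in M-BSG (adjusted p = 0.255) and -0.21 in M-BSG-Hot (adjusted p = 0.296), and no member was called in any comparison. The part of gene length in the CFLAR values was otherwise not tested.

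**Figure D4:**
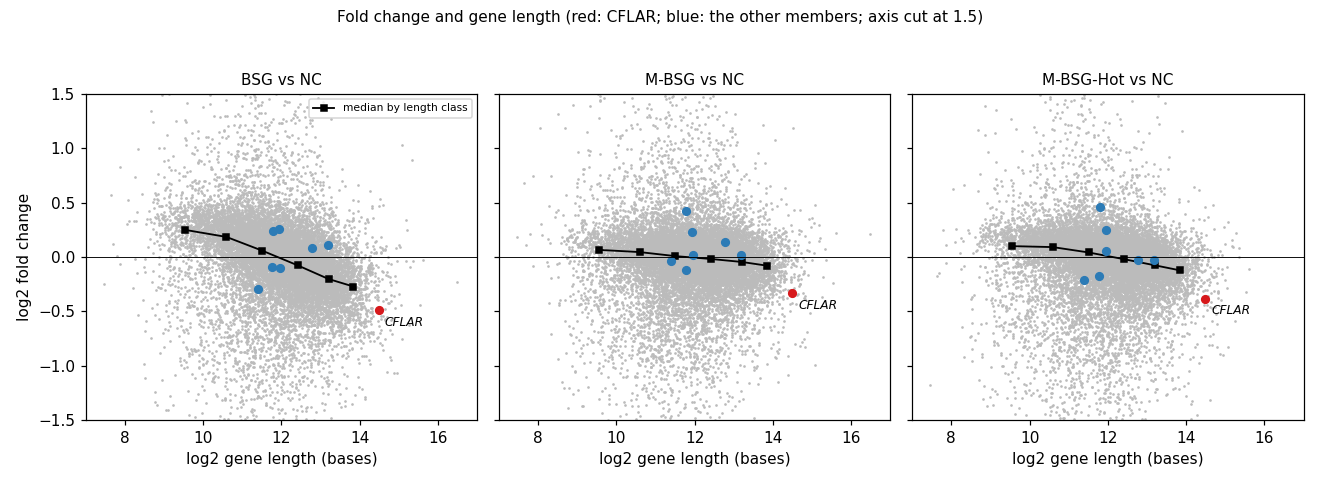
Log2 fold change against NC (vertical axis) and log2 gene length in bases (horizontal axis) for the 15407 genes tested, in BSG, M-BSG and M-BSG-Hot from left to right. Grey points are genes, black squares are medians of 6 length classes, blue points are the other 7 members and the red point is CFLAR; the black line falls most in BSG, from 0.25 in the shortest class to -0.27 in the longest.

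Genes whose log2 CPM ran most like that of CFLAR over the 12 libraries, among the 10885 genes that averaged 5 CPM or more, were LOC105378956 with a Pearson r of 0.97, TRHDE-AS1 with 0.96 and CREBZF, a leucine zipper transcription factor, with 0.95. CREBZF averaged 40.8 ± 0.322 CPM in BSG, 45.6 ± 4.31 in M-BSG and 44.7 ± 5.49 in M-BSG-Hot, against 74.95 ± 2.25 in NC (SD, n = 3 each). All 3 shared with CFLAR a level in NC above every treated group, which a ranking by likeness over the same libraries selects for. In GENCODE release 29 CFLAR has 25 transcripts, 18 of them protein-coding and 5 with a retained intron, and counts per symbol do not separate them. Whether counting used strand is not given in the sources used here, so reads of antisense partners cannot be told apart; for CFLAR the partner CFLAR-AS1 had 4 to 18 counts, against 1541 to 2403 for CFLAR itself. TNFRSF10B overlaps RHOBTB2, which had 1152 to 1653 counts, and FAS overlaps ACTA2, which had 102 to 200.

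Set against CASP8, the caspase it resembles, CFLAR had a ratio of FPKM of 0.178 ± 0.00743 in BSG, 0.204 ± 0.0298 in M-BSG and 0.203 ± 0.0192 in M-BSG-Hot, against 0.236 ± 0.0274 in NC (SD, n = 3 each). The BSG libraries gave 0.187, 0.175 and 0.173, those of M-BSG 0.178, 0.236 and 0.196, and those of M-BSG-Hot 0.219, 0.181 and 0.208, against 0.212, 0.266 and 0.230 in NC. The BSG libraries lay below NC, while M-BSG and M-BSG-Hot overlapped it. These ratios carry the long CFLAR length and describe proportions between libraries, not molecules of c-FLIP per caspase.

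BIRC3 had 9.04, 9.83 and 10.7 CPM in BSG, 9.88, 11.4 and 9.41 in M-BSG, with 9.73, 8.83 and 8.71 in M-BSG-Hot, against 7.83, 10.2 and 9.80 in NC. The groups overlapped, with the lowest library of all in NC. The log2 fold changes were 0.09, 0.14 and -0.03, and their 95% intervals stayed between -0.30 and 0.41. NFKBIA, the inhibitor of NF-kB and itself a target of it, rose by 2.08, 1.83 and 1.26 on the log2 scale in the same libraries (edgeR adjusted p = 4.17e-08, 3.14e-07 and 1.29e-05), to 91.0 ± 9.26 CPM in BSG, 76.8 ± 0.738 in M-BSG and 51.6 ± 7.4998 in M-BSG-Hot, against 21.5 ± 1.98 in NC (SD, n = 3 each). NFKBIA and FOS were named after their values were seen. FOS, an AP-1 subunit, rose by 6.12, 5.81 and 5.11 on the log2 scale (edgeR adjusted p = 2.24e-10, 3.88e-10 and 1.6e-09).

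Counted together, 1 of 8 members was called in each treated group against NC, beside 11.7% of all genes in BSG, 6.35% in M-BSG and 4.91% in M-BSG-Hot. The groups did not overlap for 3 of 8 members in BSG (TNFRSF10A, CASP9 and CFLAR), against 38.7% of all genes. They did not overlap for 2 of 8 members, CASP9 and CFLAR, in M-BSG (27.5% of all genes) and in M-BSG-Hot (28% of all genes). The median log2 fold change of the members was -0.0042, 0.017 and -0.031 for the treated groups in that order, beside -0.017, -0.0070 and 0.0024 for all genes. The counts without overlap are near the shares of all genes, and 1 call among 8 members is too few to read against them. Between the treated groups edgeR called 0 of 8 members for M-BSG against BSG (0.13% of all genes), for M-BSG-Hot against M-BSG (0.694%) and for M-BSG-Hot against BSG (0.85%). DESeq2 also called 0 members, beside 0.325%, 1.79% and 2.54% of all genes in that order. So did limma-voom, beside 0.182%, 0.656% and 0.928%. At an unadjusted p under 0.05 there were 0 members, and the share of all genes at that threshold was not counted. Among those 3 comparisons the log2 fold changes of the members other than TNFRSF10D had 95% intervals between -0.44 and 0.53. FAS lay lower in all M-BSG and all M-BSG-Hot libraries than in BSG without passing the test (adjusted p = 0.753 and 0.606), and TNFRSF10B lay higher in all M-BSG-Hot libraries than in BSG (adjusted p = 0.513). That made 1 of 8 members without overlap for M-BSG against BSG (8.89% of all genes), 0 of 8 for M-BSG-Hot against M-BSG (13.8%) and 2 of 8 for M-BSG-Hot against BSG (16.7%).

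The other genes of the pathway were described from a list of 54, of which 51 are in the tables and 46 were tested. Against NC, BSG had 5 of these 46 higher, beside 5.5% of all genes, and 1 lower, beside 6.22%. M-BSG had 3 higher, beside 3.22% of all genes, and 1 lower, beside 3.13%. M-BSG-Hot had 2 higher, beside 1.4% of all genes, and 1 lower, beside 3.51%. Their median log2 fold change was 0.11, 0.027 and 0.061, beside -0.017, -0.0070 and 0.0024 for all genes. Between the treated groups edgeR called 0 of 46, as did DESeq2 and limma-voom. Of all genes, edgeR called 0.13% for M-BSG against BSG, 0.694% for M-BSG-Hot against M-BSG and 0.85% for M-BSG-Hot against BSG. In the same order DESeq2 called 0.325%, 1.79% and 2.54%, and limma-voom 0.182%, 0.656% and 0.928%. In M-BSG against BSG, M-BSG-Hot against M-BSG and M-BSG-Hot against BSG, 2, 5 and 8 genes had an unadjusted p under 0.05. The share of all genes at that unadjusted threshold was not counted, so these numbers describe the list alone. The 5 genes in the tables but under the filter included the TRAIL ligand TNFSF10, with at most 2 counts in a library, and CASP10, the close relative of CASP8, with at most 14.

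Of 3 tested ligand genes, TNF was called in BSG and M-BSG-Hot and LTA in BSG and M-BSG, both at a very low level. Of all genes 11.7% were called against NC in BSG, 6.35% in M-BSG and 4.91% in M-BSG-Hot. The ligands and the other parts of the list named below hold too few genes to read against these shares. TNF, which encodes tumour necrosis factor, had 8, 22 and 18 counts in BSG, 4, 2 and 2 in M-BSG, with 7, 3 and 15 in M-BSG-Hot, against 0 in each NC library. The floor for NC was set at 3 counts over the group. Relative to total counts, TNF stood at 15.3 times this floor in BSG (edgeR adjusted p = 0.00315) and 8.01 times in M-BSG-Hot (adjusted p = 0.0231). The 8 counts of M-BSG did not pass (adjusted p = 0.153). These multiples use the observed treated counts and leave out their own counting error, so they are not lower limits of the fold. The call in M-BSG-Hot was lost without any one NC library or without M-BSG-Hot 3 (adjusted p = 0.0645 to 0.0775). M-BSG-Hot 3 held 15 of the 25 TNF counts of its group, and without it the group stood at 4.86 times the floor. With 1 NC library left out TNF stood at 10.1 to 10.4 times the floor in BSG and at 5.28 to 5.46 times in M-BSG-Hot. LTA, which encodes lymphotoxin alpha, had 39, 43 and 23 counts in BSG, 14, 40 and 28 in M-BSG, with 14, 10 and 13 in M-BSG-Hot, against 1, 13 and 1 in NC. It rose by 2.80 in BSG (adjusted p = 0.0144) and by 2.44 in M-BSG (adjusted p = 0.0434) on the log2 scale, and its counts in M-BSG-Hot overlapped NC (1.30, adjusted p = 0.387, called without NC 2 at 0.0437). NC 2 held 13 of the 15 LTA counts of NC, and without it the log2 fold changes were 4.95 in BSG, 4.596 in M-BSG and 3.46 in M-BSG-Hot. The BSG call of LTA was lost without NC 1 (adjusted p = 0.0590) or NC 3 (0.0662), and the M-BSG call without any of NC 1, NC 3, BSG 2, BSG 3, M-BSG 2, M-BSG 3 or the M-BSG-Hot libraries (0.0528 to 0.170).

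Of 7 other receptors and decoys, TNFRSF11B was called, in M-BSG-Hot. It encodes osteoprotegerin, a secreted decoy that binds RANK ligand and TRAIL, and had 39.6, 33.7 and 34.4 CPM in M-BSG-Hot, against 27.1, 26.8 and 28.0 in NC. It rose by 0.39 there (SE 0.093, edgeR adjusted p = 0.0256), and had 0.28 in BSG (adjusted p = 0.0639) and 0.25 in M-BSG (adjusted p = 0.148), with all treated libraries above all NC libraries. The call was lost without any one NC library or without M-BSG-Hot 1 (adjusted p = 0.0793 to 0.113), and BSG was called without BSG 2 (0.04495). Of 12 adaptors and ubiquitin regulators, TRAF3 fell by 0.35 in BSG (adjusted p = 0.0471) and TNFAIP3 rose by 0.54 in M-BSG (adjusted p = 0.0460). TRAF3 binds BIRC2 and BIRC3 through TRAF2 and restrains the non-canonical NF-kB route, and TNFAIP3 encodes A20, a ubiquitin-editing brake on NF-kB. TRAF3 had 77.7, 97.7 and 87.6 CPM in BSG, against 106, 116 and 112 in NC, and TNFAIP3 had 13.1, 16.2 and 17.7 CPM in M-BSG, against 10.0, 10.9 and 11.5 in NC. The TRAF3 call was lost without any one NC library, BSG 1, BSG 3, M-BSG 3, M-BSG-Hot 2 or M-BSG-Hot 3 (adjusted p = 0.0570 to 0.168), and with the length trend removed (0.175). The TNFAIP3 call was lost without any one NC library, BSG 2, M-BSG 2, M-BSG 3 or any one M-BSG-Hot library (0.0517 to 0.194), and TNFAIP3, at 0.31 in BSG (adjusted p = 0.180), was called there without BSG 1 (0.0380), the BSG library with the lowest value. It was also called in BSG with the length trend removed (0.47, adjusted p = 0.00905) and without M-BSG-Hot 3, M-BSG 1 and BSG 1 together (0.48, adjusted p = 0.00459).

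Of 7 genes of the mitochondrial arm, CYCS, which encodes cytochrome c, was called in BSG. It had 419.8, 313 and 360.1 CPM there, against 284, 284 and 279.5 in NC, and rose by 0.37 (edgeR adjusted p = 0.0386). The highest of these was BSG 1, and the call was lost without BSG 1, BSG 3, M-BSG 3 or any one NC library (adjusted p = 0.0554 to 0.134). Of 6 other inhibitors, BIRC5 rose by 0.30 in BSG (adjusted p = 0.0272) and NOL3 fell by 0.46 in M-BSG (adjusted p = 0.0495) and by 0.57 in M-BSG-Hot (adjusted p = 0.0219). BIRC5 encodes survivin, an inhibitor-of-apoptosis protein that also serves in mitosis, and NOL3 encodes ARC, which binds procaspase-8 and other proteins of the death fold. BIRC5 had 63.8, 56.8 and 53.3 CPM in BSG, against 48.6, 46.7 and 45.8 in NC. NOL3 had 6.62, 6.98 and 6.98 CPM in M-BSG, with 6.11, 5.63 and 7.41 in M-BSG-Hot, against 9.16, 9.68 and 9.57 in NC, without overlap, while BSG, with 9.62, 8.62 and 7.25 CPM, overlapped NC (-0.16, adjusted p = 0.427). The BIRC5 call was lost without BSG 1 or any one NC library (adjusted p = 0.0580 to 0.114). The NOL3 call was lost in M-BSG without any one NC or M-BSG library, BSG 2, M-BSG-Hot 1 or M-BSG-Hot 2 (0.0565 to 0.156), and in M-BSG-Hot without any one NC library, M-BSG-Hot 1 or M-BSG-Hot 2 (0.0559 to 0.103). MLKL, the 1 tested gene of necroptosis, and the 5 caspase substrates were not called in any comparison.

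**Figure D5:**
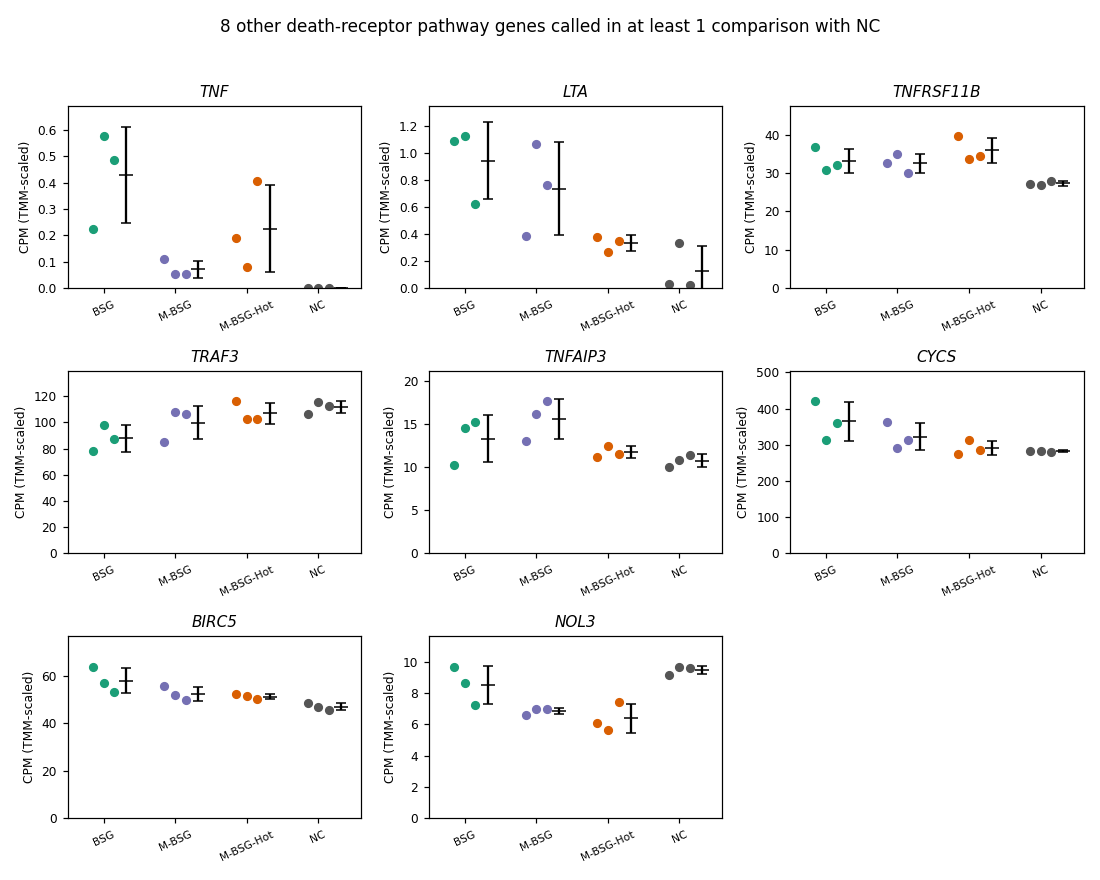
TMM-scaled CPM (vertical axes, from 0) of 8 other pathway genes called in at least 1 comparison, with the groups BSG, M-BSG, M-BSG-Hot and NC from left to right. Points are the 3 libraries of a group and the bar is the mean with its SD, cut at 0; TNFRSF11B lies at 30.1 to 39.6 CPM in the treated libraries and at 26.8 to 28.0 CPM in NC.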

How the data were processed

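The authors deposited raw read counts and FPKM per gene symbol for all 12 libraries. The length of each gene was worked out from its own counts and FPKM, as the median over libraries. Rescaling the deposited counts by this length, rounded to whole bases, and by library sum gave 100% of the FPKM above 0 back, at a relative tolerance of 1e-06. The match shows a single length per gene behind the FPKM and is no independent check of that length. Per the labels' protocols, total RNA went into a SMARTER mRNA-Seq kit. Neither aligner, counter nor annotation is given in the sources used here. A mouse assembly (GRCm38, mm10) is listed in the submitters' processing notes although the symbols are human, so the counts themselves carry no coordinates. The promoter windows come from RefSeq and the overlapping genes from GENCODE, both looked up by symbol.

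Counts were fitted in edgeR 4.0.16 (R 4.3.3): the filterByExpr filter at a minimum count of 10 left 15407 genes, with TMM factors of 0.951 to 1.05, and 1 quasi-likelihood model of the 12 libraries by group. Adjusted p-values are Benjamini-Hochberg values over all tested genes within a comparison, called under 0.05. SE was taken as the size of the log2 fold change over the root of the F statistic, and 95% intervals use it. Exact permutation of 3 against 3 libraries cannot go below p = 0.1, so none is reported. The floor for a count of 0 is 3 counts and covers the counting error of the 0 only, not that of the counts set against it. The fit was tested on simulated data. Alternatives were DESeq2 1.42.0, limma-voom (limma 3.58.1), other scalings, no filter and a minimum count of 50, the replicate number as a block, a fit of only the groups compared, each library's trend of log counts with gene length taken out as an offset, and leaving out libraries. The members, the pathway list and the alternatives were chosen with earlier results of these data known. All 8 members are named, as are pathway genes called in at least 1 comparison, up to 12; 1 of the called genes is counted but not reported here. Likeness was ranked by Pearson correlation of log2 CPM with a prior count of 2.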

Additional observations from a re-analysis of the deposited data

How the results depend on the processing

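CFLAR was lower than NC under every alternative, and no other member was called under any. Removing the length trend left 0 members called against NC in all 3 treated groups. It moved the pathway genes called to 10 in BSG and 7 in M-BSG, against 6 and 4. The share of all genes called moved to 15.4% in BSG, 9.63% in M-BSG and 7.12% in M-BSG-Hot, against 11.7%, 6.35% and 4.91%. In M-BSG against NC 0 members were also called with DESeq2-type size factors (CFLAR adjusted p = 0.0587), beside 6.26% of all genes. With only the 2 groups compared in the fit 0 members were called there (0.0667), beside 6.76%. Pathway genes called there were 2 with no count filter, 2 with the strict filter, 7 by DESeq2 and 8 without M-BSG-Hot 3, M-BSG 1 and BSG 1. The shares of all genes were 3.97%, 6.62%, 9.19% and 13.2% in the order of these 4 settings. Leaving out those libraries also gave 1 pathway gene, TNFAIP3, in M-BSG-Hot against M-BSG, where 1.81% of all genes were called, against 0.694%. Without 1 library at a time, the members called were 1 in BSG throughout, 0 to 1 in M-BSG and 0 to 1 in M-BSG-Hot. The pathway genes called were then 2 to 7, 0 to 6 and 0 to 3. Of all 15407 genes, 412 to 1296 were then called higher and 429 to 1220 lower in BSG. These were 298 to 631 and 252 to 581 in M-BSG, and 103 to 306 and 286 to 664 in M-BSG-Hot. With library size as the only scaling, the calls of BIRC5 (adjusted p = 0.0696) and CYCS (0.0643) in BSG were lost. So were those of TNFAIP3 in M-BSG (0.101) and TNFRSF11B in M-BSG-Hot (0.0548). DESeq2-type size factors lost NOL3 in M-BSG (0.0557) and TRAF3 in BSG (0.0542). A fit of only the 2 groups compared lost BIRC5 (0.0534) and TRAF3 (0.0509) in BSG and LTA in M-BSG (0.0937). With no count filter BIRC5 in BSG (0.0562) and NOL3 in M-BSG (0.0568) were lost. In M-BSG TNFAIP3 was lost with the strict filter (0.0506) and limma-voom (0.0544), and NOL3 with the replicate block (0.0762). The causes were not tested, except that fewer libraries leave fewer degrees of freedom by construction.

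Whether the replicate numbers in the titles pair the libraries was not settled. Of 18 pairs with the same number 4 had deviations correlated above 0.1 (-0.29 to 0.41), and 5 of 12 libraries correlated best with their own number. The pairs among NC, BSG and M-BSG had correlations of 0.036 to 0.41, all above 0. Those with an M-BSG-Hot library had -0.29 to 0.033. With the replicate number as a block, CFLAR in M-BSG had an adjusted p of 0.0602, so that 0 members were called there, and 1 each in BSG and M-BSG-Hot. The pathway genes called were 6 in BSG, 3 in M-BSG and 3 in M-BSG-Hot, beside 13.6%, 6.15% and 4.67% of all genes. Scaling by library size alone moved the median of all genes in BSG to -0.095, with CFLAR at -0.57. Depth limits TNFRSF10D, TNF and LTA, all under 60 counts per library.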
